A study of Mus musculus with 9 samples.

Results

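The mitochondrial solute carriers described here are 52 of the 47729 gene identifiers in each of 9 count files, and all 52 are among the 21697 protein-coding genes. They were chosen by symbol alone: every protein-coding mouse gene whose symbol starts with Slc25a, together with Ucp2, Mtch1, Mtch2, Mpc1 and Mpc2. The filter on low counts kept 48 of them. The other 4 (Slc25a31, Slc25a41, Slc25a43 and Slc25a54) were not tested.

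Midbrain was dissected from 6-month-old C57/Bl6 mice. All mice carried Pitx3-Cre/+ and a Rosa-lox-stop-lox-Yfp reporter, and they differed in Dot1l, the methyltransferase of histone H3 lysine 79: Dot1l(+/+) controls, Dot1l(fl/+) with 1 floxed allele and Dot1l(fl/fl) with 2. There were 3 libraries per genotype and each pooled the tissue of 3 mice, so replicates are pools of animals. Pitx3-Cre removes exon 5 of Dot1l in dopamine (DA) neurons, whereas the dissected tissue also holds neurons and glia without Cre. In such bulk samples, fewer cells of a type and less RNA per cell cannot be told apart.

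The inner mitochondrial membrane is closed to most metabolites, and the carriers of the SLC25 family let them cross. Each carrier is built from repeated pairs of membrane helices and exchanges a narrow set of substrates: ADP and ATP, phosphate, aspartate and glutamate, di- and tricarboxylates, carnitine, amino acids, cofactors, nucleotides, glutathione or iron. Pyruvate enters through a complex of the unrelated proteins Mpc1 and Mpc2, while Mtch1, Mtch2 and Slc25a46 are carrier relatives that sit in the outer membrane.

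Library totals ranged from 16422135 to 28403218 counts, and the carriers took 0.336 to 0.359% of them. Dot1l was at 80.2 to 85.2 CPM (the count scaled to the TMM-adjusted library total) in control libraries, at 60.6 to 84.2 with 1 floxed allele and at 73.9 to 82.9 with 2. These counts per gene include the exons outside exon 5 and so do not measure its deletion. The source label names DA neurons. Their 9 marker genes passed the filter, the dopamine transporter gene Slc6a3 at 144 to 166 CPM in controls and the Cre driver gene Pitx3 at only 0.426 to 0.859, and they summed to 619 to 682 CPM in control, 480 to 626 in Dot1l(fl/+) and 466 to 497 in Dot1l(fl/fl) libraries, beside 10050 to 11520 CPM for 6 oligodendrocyte genes in the same 9 libraries. Against controls, all 9 DA markers had values below 0 in both floxed genotypes, with 3 at an unadjusted p under 0.05 in Dot1l(fl/+) (median log2 fold change −0.21) and 8 in Dot1l(fl/fl) (median −0.59), beside 4.09% and 1.72% of all genes lower at that p. Some Dot1l(fl/+) libraries stood apart in genes of neighbouring tissue: the 3 choroid plexus markers summed to 546 CPM in replicate 3 and to no more than 158 in any other library, and the 5 hypothalamic neuropeptide genes summed to 123 and 55.9 CPM in replicates 1 and 3 and to no more than 8.37 elsewhere. The 6 oligodendrocyte markers also had a median log2 fold change of 0.10 in Dot1l(fl/+) against controls, with 2 of them higher at an unadjusted p under 0.05, beside 4.30% of all genes. The part of these tissues in the values below was not tested. In chi-square per degree of freedom over the counted genes, replicate 2 of Dot1l(fl/+) differed most from its group (15.2 and 16.5). Between replicates 1 and 3 the value was 8.26. For carriers at an unadjusted p under 0.05 in a comparison that holds them, the values without replicate 1 and without replicate 3 of Dot1l(fl/+) are given.

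RefSeq promoters (GRCm38.p6) were matched for 41 of the 52 carriers. The sequences next to the starts of Mtch1, of its relative Mtch2 and of 2 further carriers whose values are given below, Slc25a11 and Slc25a39, show the letters that recur in these promoters. Each is the 130 bases nearest to the RefSeq start that lie outside any annotated exon, 5′ to 3′ on the strand of the gene. Capitals mark GGGCGG (the GC box bound by Sp factors), CCAAT (the CCAAT box) and CCGGAAGT (a motif of ETS factors), on either strand. Mtch1 lies at chr17:29347935-29348064 (minus strand), Mtch2 at chr2:90847025-90847154 (plus), Slc25a11 at chr11:70647059-70647188 (minus) and Slc25a39 at chr11:102407545-102407674 (minus).
Mtch1: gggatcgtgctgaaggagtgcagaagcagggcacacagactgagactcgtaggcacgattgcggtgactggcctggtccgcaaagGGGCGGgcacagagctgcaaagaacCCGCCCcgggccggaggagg
Mtch2: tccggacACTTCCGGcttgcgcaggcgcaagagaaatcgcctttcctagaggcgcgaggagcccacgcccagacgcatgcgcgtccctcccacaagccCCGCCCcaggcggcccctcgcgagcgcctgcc
Slc25a11: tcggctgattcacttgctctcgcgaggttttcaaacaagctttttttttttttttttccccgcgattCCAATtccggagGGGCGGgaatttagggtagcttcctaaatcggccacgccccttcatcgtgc
Slc25a39: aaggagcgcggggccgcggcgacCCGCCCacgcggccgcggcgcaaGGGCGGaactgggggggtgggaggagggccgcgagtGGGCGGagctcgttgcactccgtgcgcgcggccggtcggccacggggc

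In the 250 bases before the start, GGGCGG was found in 30 of 41 carriers (73.2%), against 35.4% of all 27025 genes with a promoter and 62.3% of the 11498 protein-coding genes among those tested. CCAAT was found in 20 of 41 (48.8%, against 37.5% and 40.0%). CCGGAAGT was found in 2 carriers, Mtch2 and Slc25a20 (4.88%, against 3.23% and 5.99%). The exact letters TCAAGGTCA, a motif of the estrogen-related receptors, were not found in the 41 windows, and were in 0.322% of those of the tested protein-coding genes. The GC box and the CCAAT box can overlap other motifs, and 27 of the 41 carriers had a window that touched an annotated exon.

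The order of the carriers in control midbrain was described first, per kilobase of exon (RPKM, mean ± SD of 3 control libraries). The highest was Slc25a4 (ENSMUSG00000031633, chr8:46206797-46211284, GRCm38), the ADP/ATP carrier of heart, muscle and brain, with 225.7 ± 2.69 RPKM or 25.2% of the summed RPKM of all carriers. Its more widespread relative Slc25a5 followed with 74.8 ± 1.36, then the phosphate carrier Slc25a3 with 67.3 ± 1.43, the calcium-regulated ATP-Mg/phosphate carrier Slc25a23 with 53.5 ± 2.16, Mtch1 with 45.9 ± 1.16 and the glutamate carrier Slc25a18 with 39.6 ± 4.36. These 6 genes held 56.5% of the sum. Of the 52 carriers, 20 were at 10 RPKM or more, 24 between 1 and 10 and 8 below 1.

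Slc25a18 and the next gene, the oxoglutarate/malate carrier Slc25a11 (37.7 ± 2.07), overlapped in their control libraries, as did 7 of the 19 neighbouring pairs among the 20 highest. The order depends on the length used. Per kilobase of the longest coding transcript in place of all exons, Slc25a4 was still the highest (275.9 RPKM), while Slc25a3 came close to it (231.8), Mtch1 followed (132.1), Mpc2 moved from 5.86 to 42.0, and 5 of the 6 highest genes were shared.

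**Figure D1:**
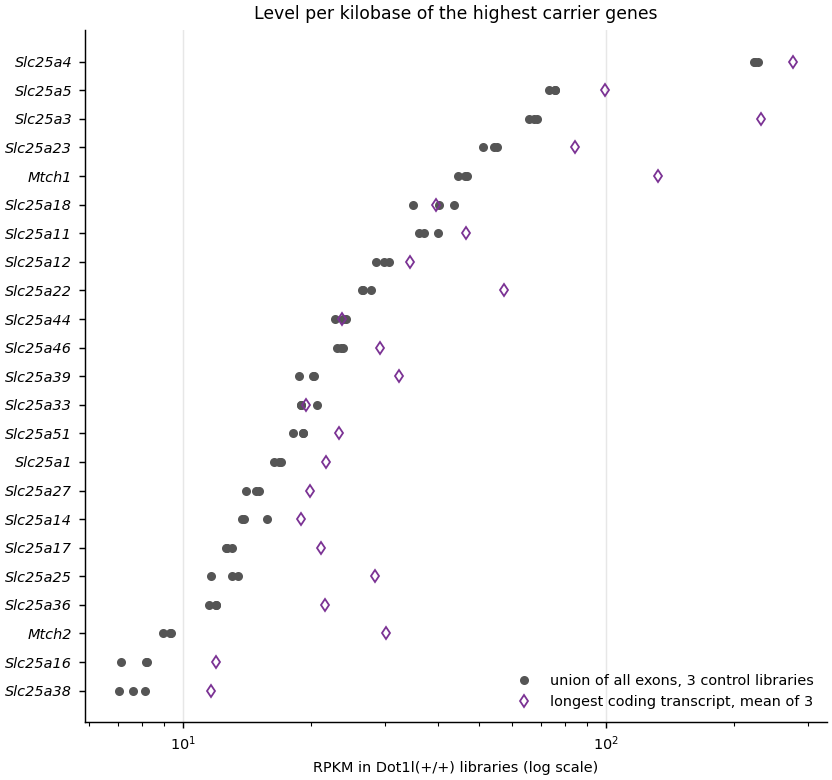
RPKM (log scale) of all but 1 of the 24 highest carriers in Dot1l(+/+) midbrain. Points are the 3 control libraries with the union of all exons as length and diamonds are the mean with the longest coding transcript as length. Slc25a4 is highest by both, and Slc25a3, Mtch1 and Mtch2 shift most to the right with the shorter length.

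Relatives with like substrates differed widely in level. The RPKM of Slc25a4 was 3.02 ± 0.041 times that of Slc25a5, the aspartate/glutamate carrier Slc25a12 stood at 15.4 ± 2.81 times its relative Slc25a13, and Slc25a23 at 33.6 ± 0.904 times Slc25a24 over all exons (84.3 against 1.59 RPKM per longest coding transcript). Mtch1 was at 4.99 ± 0.048 times Mtch2. The brain-enriched relatives of the uncoupling proteins, Slc25a14 and Slc25a27, lay close together (0.984 ± 0.054). For the 2 subunits of the pyruvate carrier the ratio depended on the length used: Mpc2 was at 0.924 ± 0.075 times Mpc1 in RPKM over all exons, but at 42.0 RPKM against 13.8 per longest coding transcript. Both leave out the counts of the pseudogene Mpc1-ps, described with the pyruvate carrier.

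In Dot1l(fl/+) against controls, the differences among the carriers were small. No carrier passed an adjusted p of 0.05 in edgeR, and neither did any of the 17671 genes tested (0.00%). At an unadjusted p under 0.05, 7 of the 48 tested carriers differed (5 higher and 2 lower), beside 8.39% of all genes tested (4.30% higher and 4.09% lower). In all, 29 carriers were higher and 19 lower, where 48.9% of all genes were higher. The median log2 fold change of the carriers was 0.028 and that of all genes −0.0034. Without Dot1l(fl/+) replicate 3, the median of the carriers was −0.0045. The 3 libraries of both genotypes did not overlap for 8 carriers (5 higher and 3 lower), beside 13.3% of all genes (6.84% higher and 6.47% lower). DESeq2 on all 9 libraries, DESeq2 on the 2 genotypes and edgeR without a filter each gave 1 carrier past an adjusted p of 0.05, Mtch1. Leaving out Dot1l(fl/+) replicates 1, 2 or 3 gave 8, 9 and 5 carriers at an unadjusted p under 0.05, and without control replicate 3 there were 3, Mtch1, Slc25a14 and Slc25a32. When length and GC content entered the fit as an offset there were also 3.

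**Figure D2:**
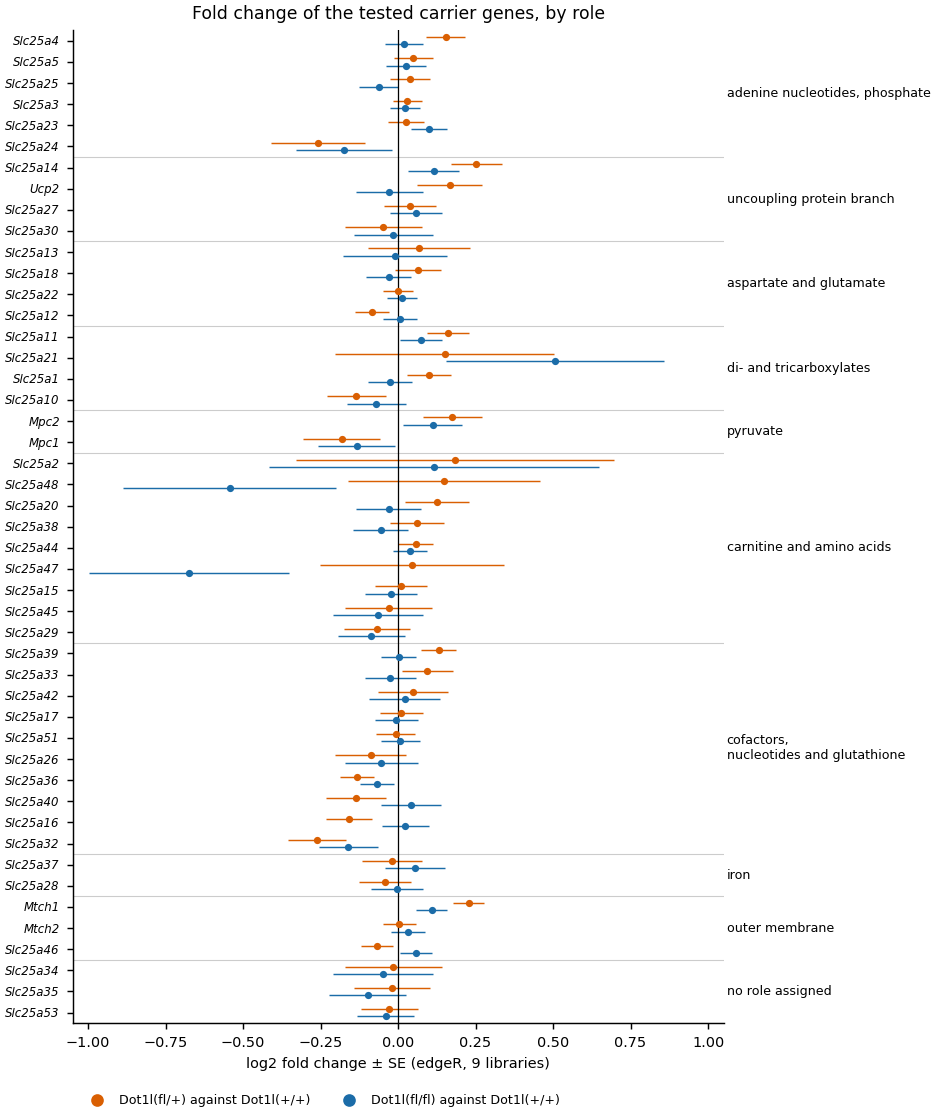
Log2 fold change ± SE (edgeR, 9 libraries) of all but 1 of the 48 tested carriers by role, for Dot1l(fl/+) (orange) and Dot1l(fl/fl) (blue) against Dot1l(+/+). Most values lie within 0.25 of 0 for both genotypes, Mtch1 lies at 0.23 and 0.11, and the wide bars belong to carriers with few counts such as Slc25a47, Slc25a48 and Slc25a21.

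Mtch1 (ENSMUSG00000024012, chr17:29332072-29347934), which can place proteins in the outer membrane, had the lowest p of all carriers. It was at 263.3, 259.7 and 250.6 CPM in the control libraries, 290.6, 305.5 and 309.8 in the Dot1l(fl/+) and 277.7, 288.5 and 267.5 in the Dot1l(fl/fl) libraries. All Dot1l(fl/+) libraries lay above all Dot1l(fl/fl) libraries, and these above all controls. The means ± SD were 257.9 ± 6.53, 302.0 ± 10.1 and 277.9 ± 10.5. Against controls, Mtch1 was 17.1% higher in Dot1l(fl/+) (log2 fold change 0.23, SE 0.050, edgeR, adjusted p = 0.54). Leaving out any 1 library gave 0.21 to 0.26, with 0.26 without replicate 1 and 0.21 without replicate 3 of Dot1l(fl/+), and an unadjusted p under 0.05 each time. An offset for length and GC content gave 0.23. The adjusted edgeR p ranged from 0.0236 in edgeR without a filter to 0.867 in edgeR without control replicate 3, and DESeq2 gave 0.0304 on all 9 libraries and 0.039 on the 2 genotypes.

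The relatives of Mtch1 in the outer membrane did not share this pattern. Mtch2 (chr2:90847155-90866810), an insertase for outer membrane proteins, was at 79.1, 79.5 and 75.9 CPM in the control libraries, 82.7, 78.9 and 73.6 in the Dot1l(fl/+) and 78.8, 81.9 and 78.9 in the Dot1l(fl/fl) libraries, so all groups overlapped. Its log2 fold changes were 0.004 and 0.032 (SE 0.054 each). Slc25a46, which takes part in mitochondrial fusion and fission, was at 125.5, 128.3 and 129.5 CPM in the control libraries, 129.5, 115.6 and 120.7 in the Dot1l(fl/+) and 136.2, 131.8 and 131.1 in the Dot1l(fl/fl) libraries. The Dot1l(fl/fl) libraries were above all others. Together the 3 outer membrane genes summed to 456 to 468, 500 to 504 and 478 to 502 CPM in the 3 genotypes, with most of the sum in Mtch1.

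Of the 6 tested carriers of adenine nucleotides and phosphate, 5 were higher in Dot1l(fl/+) and 1 lower (median 0.034), with 1 of them, Slc25a4, higher at an unadjusted p under 0.05, beside 48.9% and 4.30% of all genes. Slc25a4 was at 526.2, 538.2 and 529.0 CPM in the control libraries, 549.1, 638.7 and 583.9 in the Dot1l(fl/+) and 514.4, 571.1 and 529.8 in the Dot1l(fl/fl) libraries. Every Dot1l(fl/+) library lay above the controls, with replicate 2 far above the rest, while Dot1l(fl/fl) overlapped both. The Dot1l(fl/+) libraries gave a log2 fold change of 0.15 (SE 0.062, edgeR, adjusted p = 0.557), which went to 0.093 without replicate 2 and to 0.12 with the length and GC offset, both at an unadjusted p above 0.05. It was 0.20 without replicate 1 and 0.16 without replicate 3, and 0.15 at an unadjusted p above 0.05 without control replicate 1 or 3. In Dot1l(fl/fl) it was 0.02 (SE 0.062).

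The other abundant genes of this group overlapped between all genotypes. Slc25a5, whose gene is on the X chromosome, was at 120.5, 124.3 and 124.4 CPM in the control libraries, 116.8, 137.0 and 128.1 in the Dot1l(fl/+) and 133.8, 124.3 and 117.7 in the Dot1l(fl/fl) libraries. Slc25a3 was at 381.1, 374.7 and 365.3 CPM, then 374.4, 396.0 and 374.3, and 378.8, 384.9 and 375.1 in the same order. Slc25a23 was at 270.6, 286.7 and 292.7 CPM, then 287.3, 275.3 and 302.9, and 313.5, 313.4 and 284.1. The log2 fold changes of the 3 genes in Dot1l(fl/+) were 0.049, 0.030 and 0.026, and in Dot1l(fl/fl) 0.026, 0.023 and 0.10, each with an SE of 0.048 to 0.064. Slc25a24, a low-expressed relative of Slc25a23, was at 5.39, 5.45 and 5.56 CPM in controls and at 3.84, 5.12 and 4.73 in Dot1l(fl/+), so these libraries did not overlap. Its log2 fold change was −0.26 (SE 0.15), or −0.15 without Dot1l(fl/+) replicate 1, and the Dot1l(fl/fl) libraries (3.96, 5.06 and 5.64 CPM) overlapped both.

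In the branch of the uncoupling proteins, Slc25a14 (chrX:48623413-48662294), a brain-enriched relative of these proteins, was at 32.6, 37.2 and 32.9 CPM in the control libraries, 38.5, 43.2 and 40.5 in the Dot1l(fl/+) and 36.0, 40.9 and 34.1 in the Dot1l(fl/fl) libraries. The Dot1l(fl/+) libraries lay above the controls, and Dot1l(fl/fl) overlapped both. Its log2 fold change in Dot1l(fl/+), 0.25 (SE 0.082, edgeR, adjusted p = 0.541), was the highest of the 48 carriers. It was 0.21 to 0.32 when any 1 library was left out, 0.29 and 0.26 without Dot1l(fl/+) replicates 1 and 3, and 0.23 with the length and GC offset. For Slc25a27, Slc25a30 and Ucp2, the last known from microglia and other immune cells, the values were 0.039, −0.047 and 0.17 (SE 0.085 to 0.13), and in Dot1l(fl/fl) 0.058, −0.016 and −0.028. Ucp1, the protein of brown fat, was nearly uncounted (0 to 4 counts per library).

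The 4 carriers of aspartate and glutamate, which feed the malate-aspartate shuttle and glutamate breakdown, had log2 fold changes of −0.084 to 0.069 in Dot1l(fl/+) mice and −0.030 to 0.013 in Dot1l(fl/fl) mice, none at an unadjusted p under 0.05. Slc25a18, enriched in astrocytes, was at 76.9, 83.2 and 66.7 CPM in the control libraries, 79.7, 83.2 and 74.1 in the Dot1l(fl/+) and 73.2, 74.5 and 74.4 in the Dot1l(fl/fl) libraries, all overlapping. Among the 4 carriers of di- and tricarboxylates, Slc25a11 (chr11:70644196-70647479), the other carrier of the malate-aspartate shuttle, was at 78.5, 84.8 and 76.4 CPM in the control libraries, 81.9, 97.8 and 88.0 in the Dot1l(fl/+) and 83.9, 81.1 and 87.3 in the Dot1l(fl/fl) libraries. The highest control lay above the lowest Dot1l(fl/+) library. The log2 fold change was 0.16 (SE 0.067, edgeR, adjusted p = 0.562), which became 0.089 without Dot1l(fl/+) replicate 2 and 0.11 with the length and GC offset, both at an unadjusted p above 0.05. It was 0.22 and 0.17 without replicates 1 and 3, and 0.15 and 0.13 without control replicates 1 and 3, the last pair at an unadjusted p above 0.05. The citrate carrier Slc25a1 had a log2 fold change of 0.10 (SE 0.070), and its Dot1l(fl/+) libraries lay above the controls. The dicarboxylate carrier Slc25a10 had a value of −0.13 (SE 0.094).

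For the pyruvate carrier the subunits had values of opposite sign, Mpc1 −0.18 (SE 0.12) and Mpc2 0.18 (SE 0.094) in Dot1l(fl/+), while Dot1l(fl/fl) had −0.13 and 0.11, none at an unadjusted p under 0.05. The value of Mpc1 is uncertain, because a processed pseudogene, Mpc1-ps, held 239 to 586 counts per library beside the gene, and how the authors' counting split reads between such copies is not given in the sources used here. With the counts of both added, the values of Dot1l(fl/+) and Dot1l(fl/fl) were −0.0085 and −0.061.

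None of the 9 carriers of carnitine and amino acids was at an unadjusted p under 0.05 against controls in either genotype, beside 8.39% and 3.93% of all genes. In Dot1l(fl/+) 7 were higher and 2 lower (median 0.056), where 48.9% of all genes were higher. In Dot1l(fl/fl) 2 were higher and 7 lower (median −0.057), where 50.4% of all genes were higher. Among the better expressed ones, Slc25a44, a carrier of branched-chain amino acids, had log2 fold changes of 0.056 and 0.038, the carnitine/acylcarnitine carrier Slc25a20 0.13 and −0.031, and the glycine carrier Slc25a38 0.061 and −0.057 in Dot1l(fl/+) and Dot1l(fl/fl). The lowest value in Dot1l(fl/fl) was that of Slc25a47, a carrier best known from liver and barely counted here (0.637 RPKM in controls).

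Of 11 carriers of cofactors, nucleotides and glutathione, 5 were higher in Dot1l(fl/+) and 6 lower, with 1 higher and 2 lower at an unadjusted p under 0.05, beside 4.30% and 4.09% of all genes. Slc25a32 (chr15:39091231-39112716), which brings folate and FAD into mitochondria, was at 16.8, 16.2 and 15.2 CPM in the control libraries, 12.7, 13.0 and 14.4 in the Dot1l(fl/+) and 15.3, 13.7 and 14.1 in the Dot1l(fl/fl) libraries. The Dot1l(fl/+) libraries were all below the controls, whereas Dot1l(fl/fl) overlapped both. Its log2 fold change was −0.26 (SE 0.094, edgeR, adjusted p = 0.541), and −0.18 with the length and GC offset at an unadjusted p above 0.05. It was −0.23, −0.24 and −0.32 without Dot1l(fl/+) replicates 1, 2 and 3. Slc25a36 (chr9:97074961-97111157), a carrier of pyrimidine nucleotides, was at 110.2, 114.9 and 114.9 CPM in the control libraries, 110.2, 104.0 and 95.9 in the Dot1l(fl/+) and 107.8, 106.2 and 110.7 in the Dot1l(fl/fl) libraries. The highest Dot1l(fl/+) library was almost level with the lowest control (110.232 and 110.236 CPM). Slc25a36 is counted as not overlapping only by that gap. The log2 fold change of Slc25a36 was −0.13 (SE 0.055, edgeR, adjusted p = 0.557), which shrank to −0.038 with the offset and to −0.082 without Dot1l(fl/+) replicate 3, both at an unadjusted p above 0.05. It was −0.18 without replicate 1 and −0.14 without replicate 2, and −0.12 at an unadjusted p above 0.05 without control replicate 2 or 3.

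Slc25a39 (chr11:102402985-102407946), which imports glutathione, was at 55.8, 56.3 and 51.9 CPM in the control libraries, 59.5, 58.8 and 61.2 in the Dot1l(fl/+) and 56.6, 54.5 and 52.8 in the Dot1l(fl/fl) libraries. Dot1l(fl/+) lay above both other genotypes in all 3 libraries. Its log2 fold change was 0.13 against controls (SE 0.056, edgeR, adjusted p = 0.568), and 0.093 with the offset at an unadjusted p above 0.05. Without Dot1l(fl/+) replicate 1 or 3 it was 0.14 and 0.11, and without control replicate 3 it was 0.096, all at an unadjusted p above 0.05. Without Dot1l(fl/+) replicate 2 it was 0.14. Its relative Slc25a40 was at 18.6, 18.9 and 22.0 CPM in the control libraries, 18.7, 19.2 and 16.3 in the Dot1l(fl/+) and 19.7, 20.1 and 21.6 in the Dot1l(fl/fl) libraries, with a value of −0.14 (SE 0.096) that went to −0.051 without control replicate 3 and to −0.027 with the offset. Slc25a16, linked to coenzyme A, was at 34.2, 39.2 and 39.5 CPM in the control libraries, 33.2, 35.6 and 32.4 in the Dot1l(fl/+) and 35.9, 39.9 and 39.1 in the Dot1l(fl/fl) libraries, overlapping between the first groups. The other members of the group, among them the NAD+ carrier Slc25a51, had log2 fold changes of −0.089 to 0.095. The iron carriers Slc25a37 and Slc25a28 had values of −0.019 and −0.041, and the 3 tested carriers with no role assigned here (Slc25a34, Slc25a35 and Slc25a53) −0.028 to −0.015.

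**Figure D3:**
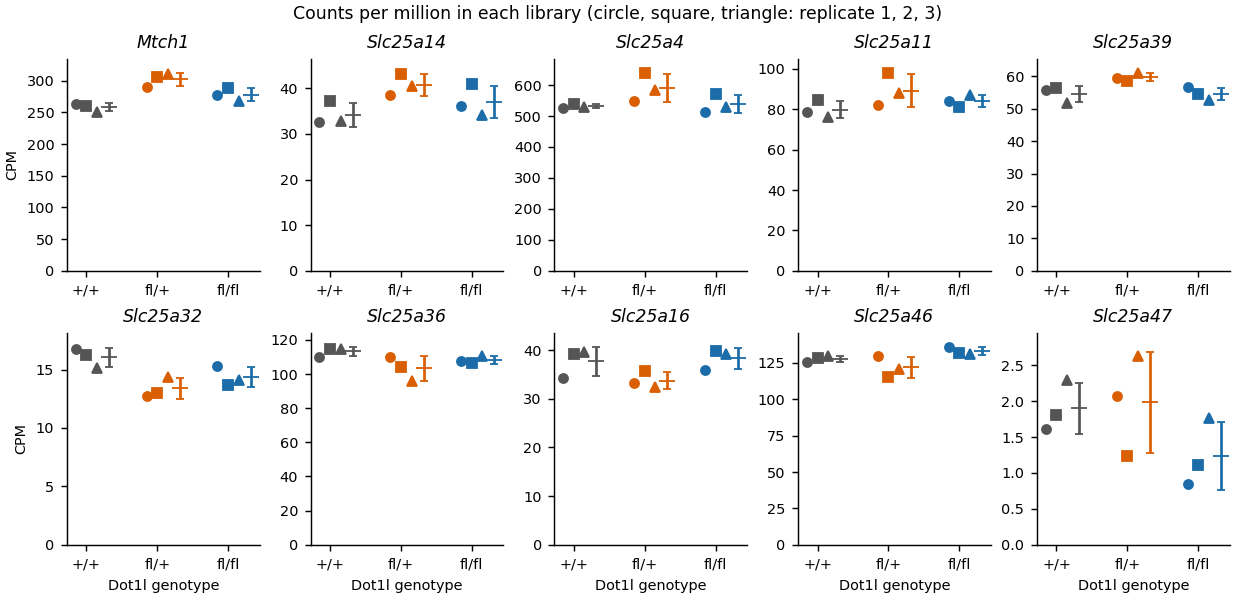
CPM in each library for the 10 carriers at an unadjusted p under 0.05 in any comparison of genotypes. Symbols mark the replicate, and the bar beside them is the mean ± SD of 3 libraries. For Mtch1 and Slc25a39 the Dot1l(fl/+) libraries lie above all others, and for Slc25a4 and Slc25a11 replicate 2 of Dot1l(fl/+) is the highest of the 9 libraries.

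GC content was taken from the longest annotated transcript of each gene. It was 47.6 to 59.7% in the 5 carriers higher in Dot1l(fl/+) at an unadjusted p under 0.05, and 41.2 and 40.7% in Slc25a32 and Slc25a36. The median was 49.4% in the tested carriers as in all tested genes. The carriers richest in GC, Slc25a10 (60.6%) and Slc25a29 (60.4%), had log2 fold changes of −0.13 and −0.068. The next richest, Slc25a39 (59.7%) and Slc25a1 (59.1%), had 0.13 and 0.10, and the poorest tested carrier, Slc25a40 (39.4%), had −0.14. Median lengths were also close, 3980.5 bases in carriers and 3972.5 in all.

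In Dot1l(fl/fl) against controls, 1 of 48 carriers (Mtch1) had an unadjusted edgeR p under 0.05, beside 3.93% of all genes tested (2.21% higher and 1.72% lower). No carrier and no gene passed the adjusted threshold in edgeR. There were 23 higher and 25 lower carriers, where 50.4% of all genes were higher, and their median was −0.0051 (all genes 0.0009). The libraries did not overlap for 2 carriers, Mtch1 and Slc25a46, both higher, beside 10.3% of all genes (5.03% higher and 5.25% lower). Mtch1 was 7.8% higher (log2 fold change 0.11, SE 0.050, edgeR, adjusted p = 0.999), and Slc25a46 had a value of 0.058 (SE 0.051). The value of Mtch1 was 0.082 to 0.14 when any 1 library was left out, and its unadjusted p was above 0.05 when any 1 of the 3 controls, replicate 3 of Dot1l(fl/+) or replicate 1 or 2 of Dot1l(fl/fl) was left out. Of the other alternatives, edgeR without a filter gave Mtch1 the highest unadjusted p, 0.079. The values furthest from 0, −0.68 for Slc25a47 and 0.51 for the oxodicarboxylate carrier Slc25a21, had SEs of 0.32 and 0.35. In the same comparison the DA marker genes had a median log2 fold change of −0.59, the 5 microglia markers were all higher (median 0.15, 2 at an unadjusted p under 0.05) and the 3 choroid plexus markers all lower (median −1.12). The part of these cells in the carrier values was not tested.

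Between Dot1l(fl/fl) and Dot1l(fl/+), 5 of 48 carriers had an unadjusted edgeR p under 0.05 (2 higher and 3 lower in Dot1l(fl/fl)), beside 6.48% of all genes (3.60% higher and 2.87% lower), and 0 passed the adjusted threshold. There were 19 higher and 29 lower carriers, where 50.5% of all genes were higher (medians −0.021 and 0.0015), and 6 did not overlap (3 higher and 3 lower), beside 11.1% of all genes (5.98% higher and 5.14% lower). Higher were Slc25a16 by 0.18 (SE 0.075) and Slc25a46 by 0.13 (SE 0.051), and lower were Slc25a39 at −0.13 (SE 0.056), Mtch1 at −0.12 (SE 0.050) and Slc25a47 at −0.72 (SE 0.32), with adjusted edgeR p-values of 0.733 to 0.758. Slc25a47 was at 2.08, 1.24 and 2.63 CPM in Dot1l(fl/+) libraries and 0.84, 1.11 and 1.76 in those of Dot1l(fl/fl), which overlapped. Without Dot1l(fl/+) replicate 3, the library high in choroid plexus genes, 0 carriers had an unadjusted p under 0.05, and with the length and GC offset there was 1. Without replicates 1 and 3 of Dot1l(fl/+), in this order, Slc25a16 was at 0.17 and 0.15, Slc25a46 at 0.17 and 0.12, Slc25a39 at −0.13 and −0.11, Mtch1 at −0.15 and −0.10, and Slc25a47 at −0.68 and −0.46. Without replicate 2 of Dot1l(fl/+), Slc25a16 was at 0.22, Slc25a46 at 0.090, Slc25a39 at −0.14 and Mtch1 at −0.11. Leaving out a Dot1l(fl/fl) library also took the unadjusted edgeR p above 0.05. This held for Slc25a16 without replicate 2, Slc25a46 without replicate 1, and Slc25a39 and Mtch1 without replicate 3. The offset gave 0.050 for Slc25a46, 0.13 for Slc25a16, −0.072 for Slc25a39 and −0.10 for Mtch1, all at an unadjusted p above 0.05. These values share the Dot1l(fl/+) libraries with the first comparison. All 9 carriers of carnitine and amino acids had values below 0 here (−0.018 to −0.72), in a comparison in which the 3 choroid plexus markers had a median of −2.31, the 9 DA markers −0.37 (5 lower at an unadjusted p under 0.05), the 6 oligodendrocyte markers −0.13 (3 lower at that p) and the 2 tested hypothalamic genes values of −5.57 and −2.43. Their part in the carrier values was not tested.

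The ratio between 2 related genes in the same library does not depend on the scaling of that library. Of the 13 pairs set, 4 had ratios in Dot1l(fl/+) that did not overlap the controls, each with an exact permutation p of 0.1, the smallest that 3 against 3 libraries allow (adjusted p 0.325 over 13 pairs). Each of these 4 pairs holds a carrier that did not overlap on its own in this comparison (Slc25a4, Mtch1, Slc25a39 or Slc25a24). The ratios therefore partly restate those values, and the share over other gene pairs was not computed. The log2 ratio of Slc25a5 to Slc25a4 was −2.13, −2.11 and −2.09 in controls and −2.23, −2.22 and −2.19 in Dot1l(fl/+), a difference of −0.10 (SE 0.017). Slc25a5 was therefore lower relative to Slc25a4 in every Dot1l(fl/+) library. In Dot1l(fl/fl) the ratios were −1.94, −2.20 and −2.17, on both sides of the controls.

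For Mtch2 to Mtch1 the log2 ratio was −1.73, −1.71 and −1.72 in the control libraries, −1.81, −1.95 and −2.07 in the Dot1l(fl/+) and −1.82, −1.82 and −1.76 in the Dot1l(fl/fl) libraries. Both genotypes lay below the controls, with differences of −0.23 (SE 0.075) and −0.077 (SE 0.020). The second difference also had an exact permutation p of 0.1 (adjusted p 0.867 over 13 pairs) and was the only non-overlapping ratio in Dot1l(fl/fl). The ratio of Slc25a40 to Slc25a39 differed by −0.26 (SE 0.15) and that of Slc25a24 to Slc25a23 by −0.29 (SE 0.14) in Dot1l(fl/+). In both, the spread within a genotype was wide. The first went to −0.15 without control replicate 3 and to −0.18 without Dot1l(fl/+) replicate 3, and the second to −0.18 without Dot1l(fl/+) replicate 1. Mpc2 to Mpc1 differed by 0.35 (SE 0.18) with overlapping libraries (exact permutation p 0.2), a ratio that rests on the uncertain count of Mpc1 without its pseudogene. The other pairs had differences of −0.22 to 0.22 in Dot1l(fl/+), and all of them overlapped.

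**Figure D4:**
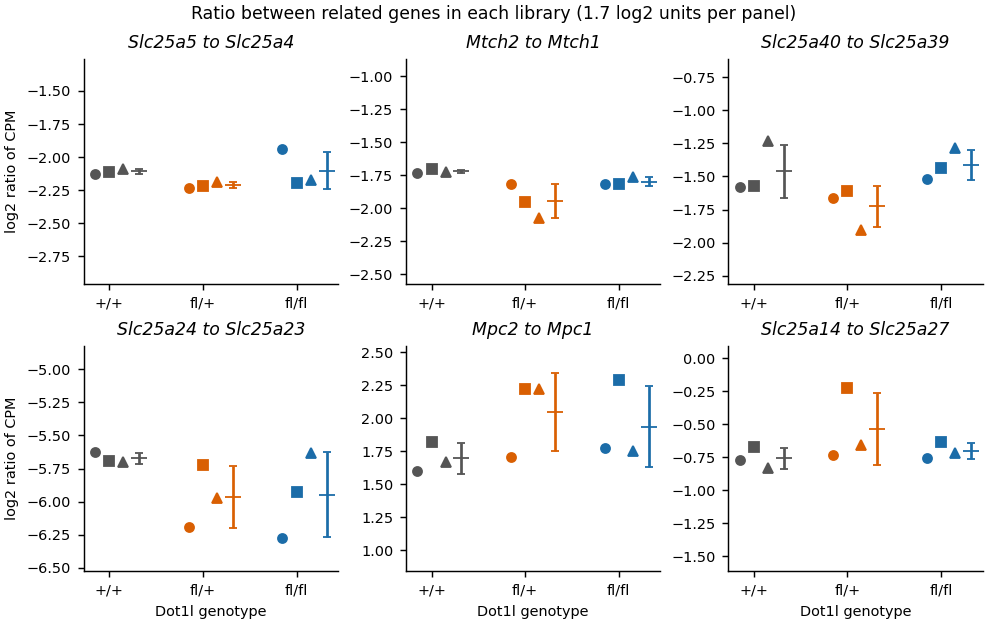
Log2 ratio of CPM between related carriers in each library, with the mean ± SD of 3 libraries beside the points; each panel spans the same number of log2 units. The ratios of Slc25a5 to Slc25a4 and of Mtch2 to Mtch1 are tight in controls and lower in all 3 Dot1l(fl/+) libraries, whereas those of Mpc2 to Mpc1 and Slc25a14 to Slc25a27 overlap.

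Genes that work with the carriers were counted in lists of their own. Of 10 genes for carrier import, which chaperone carriers across the intermembrane space and insert them, 9 were higher in Dot1l(fl/+) (median log2 fold change 0.079) and 2 of these, the chaperones Timm13 (0.26, SE 0.10) and Timm8b (0.23, SE 0.10), had an unadjusted edgeR p under 0.05. Of all genes tested, 48.9% were higher and 4.30% were higher at that p. In Dot1l(fl/fl) 6 of the 10 were higher, with a median of 0.0069, beside 50.4% of all genes. Of 10 genes of calcium uptake and cation exchange 8 were higher in Dot1l(fl/+) (median 0.063) and 7 in Dot1l(fl/fl) (median 0.069). Among 7 enzymes of the malate-aspartate and glycerol phosphate shuttles 5 were higher in both genotypes (medians 0.071 and 0.046). The cytosolic aspartate aminotransferase Got1 (0.12, SE 0.056) had an unadjusted edgeR p under 0.05 in Dot1l(fl/+).

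For 4 outer membrane channel genes the medians of Dot1l(fl/+) and Dot1l(fl/fl) were 0.052 and −0.032, for 5 sideroflexins −0.026 and 0.040, for 4 mitochondrial ABC transporters −0.0047 and −0.033, and for 4 tested enzymes of carnitine metabolism 0.048 and 0.11. Against controls, Abcb6, which moves porphyrins, was lower in Dot1l(fl/fl) (−0.46, SE 0.21) and the carnitine acetyltransferase Crat was higher (0.22, SE 0.062). Both were at an unadjusted edgeR p under 0.05, beside 1.72% of all genes lower and 2.21% higher at that p. Crat was also higher in Dot1l(fl/fl) than in Dot1l(fl/+) (0.13, SE 0.061), where 3.60% of all genes were higher at that p. None of these genes passed an adjusted edgeR p of 0.05.

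The 4 untested carriers had few counts. Slc25a31, an ADP/ATP carrier of germ cells, had 2, 2 and 1 counts in the control libraries, 11, 8 and 6 in the Dot1l(fl/+) and 26, 1 and 3 in the Dot1l(fl/fl) libraries. Slc25a41 had 1 to 8 counts per library and Slc25a43 1 to 10. Slc25a54 had 0 counts in 8 libraries and 1 in Dot1l(fl/fl) replicate 3.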

How the data were processed

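The authors isolated RNA from dissected midbrain, made directional libraries and deposited raw counts per Ensembl gene for each of 9 libraries. The submitters' processing notes name bcl2fastq 2.17, Trimmomatic 0.30, DESeq2 1.10.1 and GRCm38.p4, while the tools for alignment and counting and the gene annotation are not given in the sources used here. The text of the series speaks of sorted cells at E15.75, whereas all labels give 180 days and dissected tissue, which were followed. The deposited tables of the authors' own comparisons (mean normalized counts, fold changes, standard errors and p-values) were not used.

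Symbols, lengths and coordinates came from GENCODE M21 (GRCm38), which held 47310 of 47729 identifiers. Genes were tested with edgeR 4.0.16 (R 4.3.3): filterByExpr, TMM normalization (factors 0.988 to 1.01), the quasi-likelihood test with genotype as the only factor over all 9 libraries, and Benjamini-Hochberg adjustment over 17671 genes. The biological coefficient of variation was 8.81%. CPM and RPKM used TMM-scaled totals. Log2 ratios of related genes (prior count 2) were compared with two-sided exact permutation tests. The RPKM length was the union of all exons. Genes are named at an unadjusted p under 0.05, among the 6 highest in controls, in a pair whose ratios did not overlap, together with Mtch1, listed by name. Genes of related lists are named at an unadjusted p under 0.05. Further carriers named within a role are examples chosen after their values were seen, and results of 2 genes are not reported here. Members, lists and tests were chosen with earlier results of these data known. The scripts were tested on simulated data. Replicates differed by a chi-square of 4.47 to 16.5 per degree of freedom, so none was a repeated deposit. Per the study, the pools were built from matched sets of the 3 genotypes, 1 set per nest, but no source used here ties the replicate numbers to nests, so numbers were paired only in an alternative, and p-values measure the spread between these pools.

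Alternatives were DESeq2 1.42.0, edgeR on 2 genotypes, DESeq2 size factors, other filters, an offset for length and GC content fitted by splines (4 degrees of freedom each), a replicate block and leaving out each library. Added after seeing the data were transcript lengths, library totals and the Mpc1-ps counts. Files were handled with Python 3.11.15, pandas 2.3.3, scipy 1.17.1 and matplotlib 3.10.9.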

Additional observations from a re-analysis of the deposited data

How the results depend on the processing

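In the comparison in which it had an unadjusted p under 0.05, no carrier changed sign under any alternative. For carriers past an adjusted p of 0.05, Dot1l(fl/+) against controls gave 1 (Mtch1) with DESeq2 on all 9 libraries, DESeq2 on the 2 genotypes and edgeR without a filter. For all genes the counts in that comparison were 7, 45 and 251 in these settings, 1 with edgeR on the 2 genotypes and 0 to 5 when 1 library was left out. In Dot1l(fl/fl) against controls they were 3, 8, 118 and 4, with 3 under the replicate block, 3 under the block with the length and GC offset, and 0 to 4 without 1 library. Between Dot1l(fl/fl) and Dot1l(fl/+) they were 11, 8 and 164 with both DESeq2 fits and no filter, 3 under the replicate block, 4 under the block with the offset, and 0 to 12 without 1 library.

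Carriers at an unadjusted p under 0.05 numbered, in Dot1l(fl/+) against controls, 4 with edgeR on the 2 genotypes, 3 with the offset, 4 with the offset and block and 3 to 9 without 1 library. In Dot1l(fl/fl) against controls there were 2 with both DESeq2 fits, edgeR on the 2 genotypes, no filter and the offset with block, and 0 to 4 without 1 library. Without a filter, Mtch1 was not among the 2. Between Dot1l(fl/fl) and Dot1l(fl/+) there were 1 with DESeq2 on the 2 genotypes, 3 with edgeR on the 2 genotypes, 1 with the offset and 0 to 6 without 1 library. Without 1 library the median of the carriers ranged from −0.0045 to 0.0327, from −0.0154 to 0.0092 and from −0.0285 to −0.0008 in the 3 comparisons, the non-overlapping carriers numbered 9 to 16, 3 to 9 and 8 to 14, and the non-overlapping pairs 4 to 8 in Dot1l(fl/+) and 1 to 4 in Dot1l(fl/fl). The cause of these shifts was not tested, except that fewer libraries overlap less often by construction. For these counts, and for those under the replicate block below, the shares of all genes are not given. They therefore do not set the carriers apart from other genes.

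Same-numbered libraries of different genotypes had correlations of their deviations of 0.022 to 0.317, with 6 of 9 over 0.1, those of differently numbered ones −0.267 to 0.108, and 6 of 9 libraries correlated best with their own number. This is a hint of pairing from the data. The replicate block gave 9, 1 and 7 carriers at an unadjusted p under 0.05 in the 3 comparisons, in place of 7, 1 and 5. Under the replicate block Mtch1 in Dot1l(fl/+) had a log2 fold change of 0.23 and an adjusted edgeR p of 0.273, within the range of 0.0236 to 0.867 over all alternatives. Depth limits Slc25a47, Slc25a48, Slc25a21 and Slc25a2 most, with SEs of 0.30 to 0.51 in Dot1l(fl/+).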
